A study of Mus musculus with 28 samples.

Results

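The transcripts described here are those of 10 genes: the SOCS family members Cish, Socs1, Socs2, Socs3, Socs5 and Socs6, and the kinases Jak1, Jak2, Jak3 and Tyk2. They were chosen by gene symbol among the 40021 genes of the expression table, and all 10 were found. Janus kinases (JAKs) are bound to the inner side of cytokine and interferon receptors, and when a ligand brings the receptor chains together the kinases phosphorylate STAT transcription factors, which then move to the nucleus. The SOCS proteins are a negative feedback on this pathway: they bind kinases or phosphorylated receptors through an SH2 domain, and recruit a ubiquitin ligase through a domain called the SOCS box. Cish (which encodes CIS), Socs1, Socs2 and Socs3 are textbook targets of the STATs themselves, and in macrophages Socs1 and Socs3 are well known to be raised by lipopolysaccharide (LPS), an endotoxin of the outer membrane of Gram-negative bacteria.

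mRNA-Seq was performed on microglia, the resident macrophages of the retina, sorted from 28 single retinas. All mice were male heterozygotes of the line Cx3cr1CreER:R26-tdTomato on C57BL/6, in which Cre is driven by the gene of the fractalkine receptor, and all of them, naïve mice included, had received tamoxifen as eye drops weeks before to switch on the tdTomato reporter. They were young adults. The groups were 10 naïve retinas and retinas with endotoxin-induced uveitis (EIU), in which LPS had been injected into the vitreous 4 h (6 retinas), 18 h (5 retinas) or 2 weeks (7 retinas) before collection. Naïve retinas had no injection, so effects of LPS and of the injection cannot be told apart. The retinas came from experiments 1 and 2, which gave 6 and 4 naïve retinas, 3 and 3 at 4 h, 4 and 1 at 18 h, and 4 and 3 at 2 weeks. The labels name the eye but not the mouse, so a pair of retinas may share an animal, and p-values measure the spread between retinas only.

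Values were RPKM, read counts scaled to transcript length and to sequencing depth, which allow levels to be compared between genes. The retinas had 7510000 to 19700000 alignments each, at which 1 alignment to the longest mRNA was worth 0.0178 to 0.0467 RPKM for Cish and 0.0101 to 0.0265 RPKM for Jak2. Between 6552 and 11825 genes reached an RPKM of 1. In 7 retinas, all of experiment 1, fewer than 9000 genes did: 4 naïve retinas (replicates 3 to 6), 4 h replicate 2, 18 h replicate 4 and 2-week replicate 1. Each of the 9 microglial markers checked (among them Cx3cr1, P2ry12 and Tmem119) had a median above 1 RPKM in every group, and their summed level had a median of 3340 RPKM in naïve retinas, against 1007 (4 h), 1847 (18 h) and 3213 (2 weeks). All 8 neutrophil markers had a median below 1 RPKM in every group, with sums up to 16.6 RPKM in any retina at 18 h. Of the 8 monocyte and 9 lymphocyte markers only Plac8 and Nkg7 passed a median of 1 RPKM, both at 18 h, when the sums ran from 0.228 to 49.7 and from 9.55 to 86.5 RPKM. The 7 rod photoreceptor markers summed to 177 to 5040 RPKM over all retinas and the 6 Müller glia markers to 149 to 10127 RPKM. The part of these other cells in the results below was not tested. In bulk RNA, fewer cells that express a gene and less RNA per cell cannot be told apart.

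At 4 h, 5 of the 10 transcripts rose and none fell: Socs3 by far the most, then Socs2, Jak2, Socs1 and Cish. The other kinases and Socs5 and Socs6 did not pass the test. None of the 10 passed against naïve retinas at 18 h, when 2.84% of all genes tested rose and 1.85% fell, or at 2 weeks. Differences are given as log2 fold changes of RPKM + 1, with the standard error (SE), from limma on all 28 retinas with Benjamini-Hochberg adjustment over 13164 genes. Genes were counted as differentially expressed (DEGs) where the fold change reached 2 and the adjusted p did not exceed 0.05. On this scale changes of genes with few reads are understated. Of all genes tested, 3.68% rose and 4.39% fell at 4 h, and the median log2 fold change was 1.17 for the members against -0.11 for all genes. With each retina rescaled to an equal summed RPKM the median of all genes was -0.28, and the same 5 members passed. Socs2 and Cish reached the filter of 1 RPKM in 5 retinas only through their 4 h retinas, so the members' count and median are descriptions and not support for a difference.

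**Figure D1:**
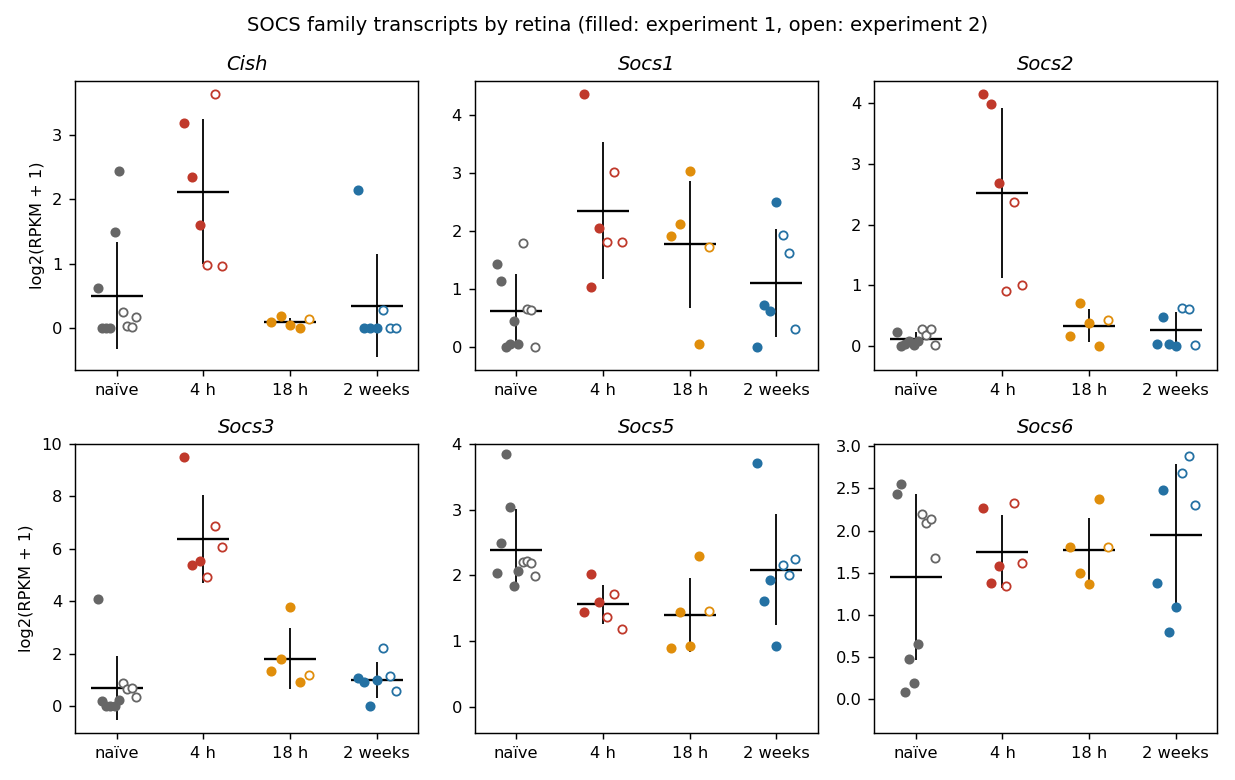
SOCS family transcripts in each of the 28 retinas, as log2(RPKM + 1) on the vertical axes, which differ between panels, against group. Points are retinas (filled for experiment 1, open for experiment 2), horizontal bars are group means and vertical bars 1 SD. For Socs2 and Socs3 every retina at 4 h lies above every naïve retina, while Socs5 at 4 h lies at the low end of the naïve range or below it.

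Socs3, whose product inhibits signalling through gp130, the shared receptor chain of the interleukin-6 (IL-6) family, changed most. In naïve retinas it ranged from 0 to 15.8 RPKM with a median of 0.237, and only replicate 1 passed 1 RPKM. At 4 h the 6 retinas held 29.2, 41.0, 45.4, 66.9, 115 and 724 RPKM. At 18 h they held 0.884, 1.32, 1.56, 2.52 and 12.9 RPKM, and at 2 weeks they ranged from 0 to 3.71 with a median of 0.991. The 4 h retinas did not overlap with any other group. The log2 fold change against naïve was 5.66 (SE 0.59, limma adjusted p = 2.8e-08) at 4 h, 1.10 (SE 0.63, adjusted p = 0.38) at 18 h and 0.28 (SE 0.57, adjusted p = 1) at 2 weeks. Between 4 h and 18 h Socs3 fell by 4.56 (SE 0.70, adjusted p = 4.5e-05). Within experiment 1 the 4 h difference was 6.05 (adjusted p = 5.8e-04) and within experiment 2 it was 5.30 (adjusted p = 3.6e-05). On untransformed RPKM, on which the 4 h SD was 273 RPKM, the 4 h difference had an adjusted p of 0.13 across all genes and did not pass.

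Socs2, whose product binds the growth hormone receptor and dampens its signal, was almost undetected outside the 4 h group. No naïve retina passed 0.209 RPKM, and the median was 0.0572. At 4 h the values were 0.876, 1.00, 4.18, 5.41, 14.8 and 16.8 RPKM, all above every naïve retina. At 18 h they were 0, 0.125, 0.293, 0.343 and 0.641 RPKM, and at 2 weeks the highest was 0.541. The log2 fold change at 4 h was 2.40 (SE 0.34, adjusted p = 5.9e-06), and from 4 h to 18 h the transcript fell by 2.18 (SE 0.40, adjusted p = 4.8e-04), which did not pass within experiment 2 (adjusted p = 0.30). Socs2 entered the test only because its 4 h retinas passed the filter of 1 RPKM in 5 retinas, so its presence among the genes tested is no support for the difference. The experiments differed in size: at 4 h the mean was 12.3 ± 6.08 RPKM in experiment 1 and 2.02 ± 1.87 in experiment 2 (SD, n = 3 each), and the 4 h log2 fold change was 3.53 (adjusted p = 4.2e-06) and 1.24 (adjusted p = 0.027). The test of this difference, -2.29 (SE 0.48), had an adjusted p of 0.055 with limma and did not pass. Of all genes tested, 0.0988% passed it.

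Socs1 encodes an inhibitor that binds the JAKs directly and limits interferon signalling. It ranged from 0 to 2.45 RPKM in naïve retinas, with a median of 0.460. At 4 h the 6 retinas held 1.04, 2.5, 2.51, 3.16, 7.10 and 19.5 RPKM, and 5 of them lay above all naïve retinas. The 18 h values were 0.0303, 2.28, 2.77, 3.36 and 7.22 RPKM, with 3 above all naïve retinas, and at 2 weeks they ran from 0 to 4.67 with a median of 0.653. The log2 fold change was 1.73 (SE 0.46, adjusted p = 0.013) at 4 h, 1.15 (SE 0.49, adjusted p = 0.20) at 18 h and 0.48 (SE 0.44, adjusted p = 1) at 2 weeks. Unlike Socs2, Socs3 and Cish, Socs1 did not pass between 4 h and 18 h, where the difference was -0.58 with a 95% interval from -1.69 to 0.52. Without 4 h replicate 1, the retina at 19.5 RPKM, the 4 h change was 1.32 and no longer passed (adjusted p = 0.071). Within experiments 1 and 2 it was 1.96 (adjusted p = 0.21) and 1.44 (adjusted p = 0.071).

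Cish encodes CIS, an inhibitor of STAT5 signalling from several cytokine receptors. Its naïve values ran from 0 to 4.43 RPKM with a median of 0.0731, and only 2 retinas passed 1 RPKM. At 4 h they were 0.955, 0.961, 2.03, 4.07, 8.09 and 11.4 RPKM. The 4 h and naïve groups overlapped, since 2 naïve retinas held 1.82 and 4.43 RPKM. At 18 h no retina passed 0.134 RPKM, and at 2 weeks 1 of 7 did so clearly, at 3.40 RPKM, against a median of 0. The log2 fold change was 1.61 (SE 0.41, adjusted p = 0.0081) at 4 h, -0.41 (SE 0.43, adjusted p = 0.68) at 18 h and -0.16 (SE 0.39, adjusted p = 1) at 2 weeks. From 4 h to 18 h Cish fell by 2.03 (SE 0.48, adjusted p = 0.0076), which did not pass within experiment 1 (-2.30, adjusted p = 0.090). Within experiment 2, which had 1 retina at 18 h, this difference was -1.72. Outside the 4 h group only 3 retinas reached 1 RPKM, so Cish entered the test through its 4 h retinas. The 4 h change was 1.62 (adjusted p = 0.18) within experiment 1 and 1.74 (adjusted p = 0.043) within experiment 2.

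Socs3 had the highest RPKM of the 6 SOCS transcripts in 6 of 6 retinas at 4 h, where it made up 62.5% to 93.5% of their summed RPKM. In naïve retinas Socs5 was the highest in 7 of 10, and Socs3 had a median share of 3.67%. Their summed RPKM had a median of 8.43 (naïve), 70.2 (4 h), 8.97 (18 h) and 8.58 (2 weeks).

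Stretches around the RefSeq start of these genes are shown because cytokine-induced SOCS genes are regulated by STATs. RefSeq windows (GRCm38.p6) from 250 bases before to 50 after the annotated start were found for 7 of the 10 members: Cish, Socs1, Socs3, Jak1, Jak2, Jak3 and Tyk2. Both strands were searched for TTCNNNGAA, the gamma-activated sequence bound by STAT dimers, and GAAANNGAAA, part of the interferon-stimulated response element bound by interferon regulatory factors. Of 32851 windows, 8.3% held the first and 3.44% the second. Among the 7 members, the first was found in Socs3 and Cish and the second in Socs1. Capitals mark the matches in the lines that follow, each printed 5′ to 3′ on the strand of the gene.
Socs3, chr11:117969482-117969550, minus strand, 184 to 116 bases before the start: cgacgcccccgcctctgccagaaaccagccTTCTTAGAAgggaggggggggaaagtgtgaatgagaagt
Socs1, chr16:10785578-10785646, minus strand, 110 to 42 bases before the start: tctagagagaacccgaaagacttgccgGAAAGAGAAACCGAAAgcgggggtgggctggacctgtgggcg
Cish, chr9:107296654-107296683, plus strand, from 5 bases before the start: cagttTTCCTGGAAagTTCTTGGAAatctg
In GENCODE M21 the Socs1 stretch lies outside the gene, the Socs3 stretch lies within the span of Socs3 but in no exon, and the Cish stretch overlaps 1 Cish exon, with both matches at or after the RefSeq start. Socs1 holds 2 matches that overlap each other, and Cish holds 2 that lie side by side. The NF-kappa B consensus, which 8.46% of all windows held, was found in none of the 7. These are matches of letters and do not show binding.

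Socs5 and Socs6 have long N-terminal regions and are linked to signalling from receptor tyrosine kinases such as the epidermal growth factor receptor. Socs5 had 2.58 to 13.5 RPKM in naïve retinas with a median of 3.61, the highest median of the 6 SOCS members there, though below the 4.36 of Socs4. At 4 h it was at 1.28 to 3.08 RPKM with a median of 1.87, and 5 of 6 retinas lay below all naïve retinas. At 18 h the values were 0.866, 0.895, 1.72, 1.73 and 3.89 RPKM, with 4 of 5 below all naïve retinas. At 2 weeks they ran from 0.902 to 12.1 with a median of 3.03. The log2 fold change was -0.84 (SE 0.35, adjusted p = 0.16) at 4 h and -0.99 (SE 0.38, adjusted p = 0.14) at 18 h, and neither passed. The retina at 3.89 RPKM was 18 h replicate 4, which detected fewer than 9000 genes. With only the retinas above that number, an alternative added after the values were seen, the 18 h change was -1.01 and passed (adjusted p = 0.019).

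No difference of Socs6 between groups passed. Its median in naïve retinas was 2.72 RPKM, with a range of 0.0571 to 4.86. The later medians were 2.03 (4 h, range 1.53 to 4.02), 2.48 (18 h, 1.57 to 4.17) and 3.95 RPKM (2 weeks, 0.735 to 6.41). The log2 fold changes were 0.30, 0.32 and 0.50 with adjusted p of 0.74, 0.77 and 1, and the interval of the 4 h difference ran from -0.53 to 1.14. The 4 naïve retinas with fewer than 9000 genes held 0.0571 to 0.578 RPKM and the other 6 held 2.19 to 4.86. Without retinas of this kind the 4 h difference was -0.35 and the 18 h difference -0.56, the opposite sign. Of the remaining SOCS genes, Socs4 ranged from 3.66 to 15.2 RPKM at 4 h against 0.999 to 6.79 in naïve retinas (log2 fold change 0.69, SE 0.35, adjusted p = 0.26). Socs7 did not pass the filter on low values.

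**Figure D2:**
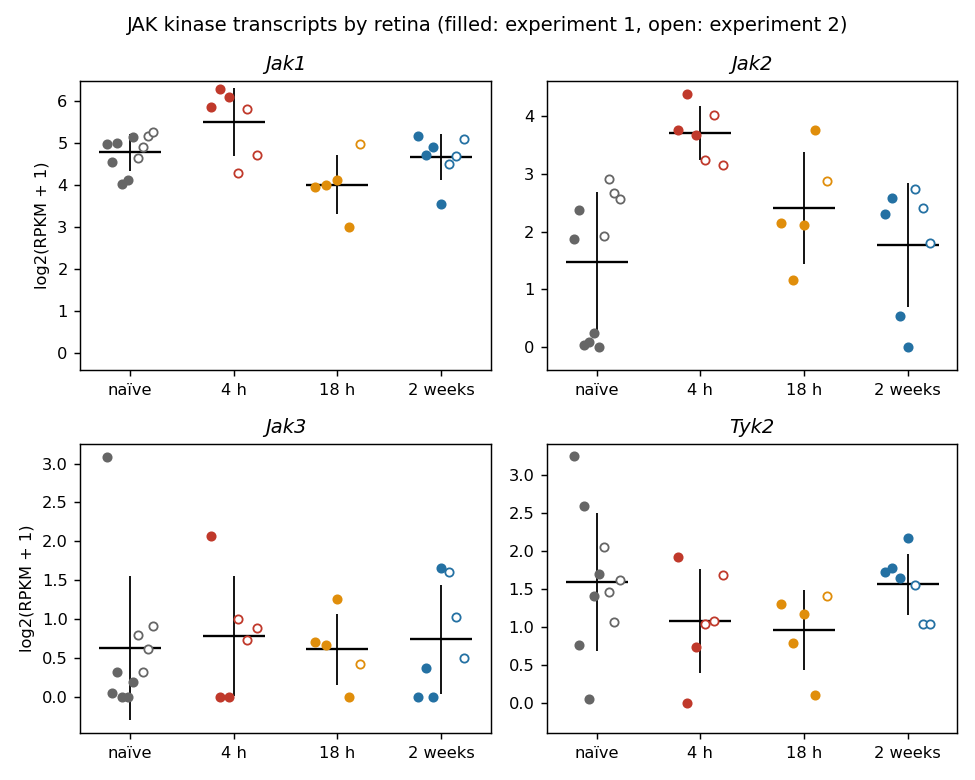
JAK kinase transcripts in each of the 28 retinas, as log2(RPKM + 1) on the vertical axes, which differ between panels, against group. Points are retinas (filled for experiment 1, open for experiment 2), horizontal bars are group means and vertical bars 1 SD. Jak2 at 4 h lies above all naïve retinas, of which 4 lie near 0.

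Among the kinases, Jak1 was the most abundant transcript in 27 of 28 retinas, the exception being 18 h replicate 4. JAK1 serves interferon receptors, the gp130 family and receptors with the common gamma chain. In naïve retinas Jak1 ranged from 15.1 to 37.0 RPKM with a median of 29.8. At 4 h it ranged from 18.5 to 76.0 with a median of 55.7, and 4 of 6 retinas were above all naïve retinas. At 18 h the values were 7.07, 14.5, 14.9, 16.3 and 30.2 RPKM, with 3 below all naïve retinas, and at 2 weeks the range was 10.8 to 35.0. Neither the 4 h difference of 0.72 (SE 0.34, adjusted p = 0.22) nor the 18 h difference of -0.77 (SE 0.36, adjusted p = 0.25) passed, but between 4 h and 18 h Jak1 fell by 1.49 (SE 0.40, adjusted p = 0.020). The mean at 4 h was 66.2 ± 9.84 RPKM in experiment 1 and 32.9 ± 19.6 in experiment 2 (SD, n = 3 each), with naïve means of 24.9 and 31.2, and the test of a difference between experiments at 4 h, -1.48 (SE 0.62), had an adjusted p of 0.88. The 4 h to 18 h difference was -2.29 within experiment 1 (adjusted p = 0.024) and 0.032 within experiment 2, which had 1 retina at 18 h. Leaving out 4 h replicate 1, 4 h replicate 3 or 18 h replicate 4 raised the adjusted p to 0.052, 0.051 and 0.075, and with only the 4 h and 18 h retinas in the model it was 0.053.

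Jak2, the kinase of the interferon-gamma, IL-12 and haematopoietic growth factor receptors, was the only kinase that rose at 4 h. Naïve retinas held 0 to 6.53 RPKM with a median of 2.72. At 4 h the values were 7.88, 8.45, 11.8, 12.6, 15.2 and 20.0 RPKM, all above every naïve retina. At 18 h they were 1.25, 3.33, 3.42, 6.35 and 12.6 RPKM, and at 2 weeks they ran from 0 to 5.72. The log2 fold change was 2.24 (SE 0.52, adjusted p = 0.0037) at 4 h, 0.94 (SE 0.55, adjusted p = 0.39) at 18 h and 0.30 (SE 0.49, adjusted p = 1) at 2 weeks, and from 4 h to 2 weeks Jak2 fell by 1.94 (SE 0.56, adjusted p = 0.029).

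The size of this rise differed between sets of retinas. Without any single retina it was 2.07 to 2.40 and passed. The 4 naïve retinas with fewer than 9000 genes held 0 to 0.192 RPKM of Jak2, and the other 6 held 2.66 to 6.53. Without all 7 retinas of low gene number, among them the 4 h retina with 20.0 RPKM, the 4 h change was 1.18 and did not pass (adjusted p = 0.065), and the 18 h difference turned to -0.31 (adjusted p = 0.70). Within experiment 1, which held all of them, the 4 h change was 3.18 (adjusted p = 0.016), and within experiment 2 it was 0.95 (adjusted p = 0.072). The test of the difference between experiments, -2.22 (SE 0.92), had an adjusted p of 0.87. The 4 h to 18 h difference of -1.30 did not pass with all retinas (adjusted p = 0.27) and was -1.50 without those of low gene number (adjusted p = 0.037).

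**Figure D3:**
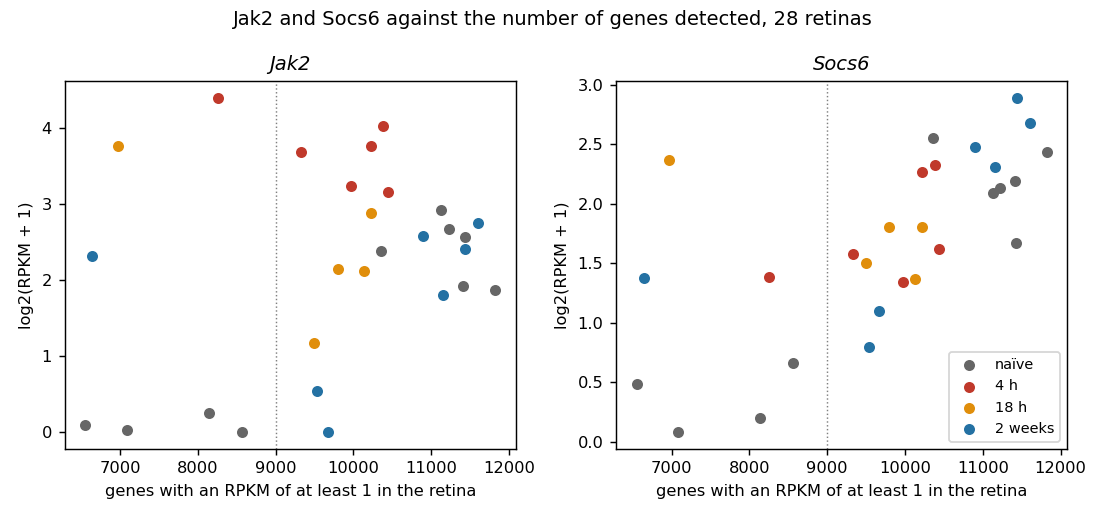
Jak2 (left) and Socs6 (right) as log2(RPKM + 1) against how many genes reached 1 RPKM, for 28 retinas coloured by group. The dotted line marks 9000 genes. The 4 naïve retinas left of the line held at most 0.192 RPKM of Jak2, while the 4 h, 18 h and 2-week retinas left of the line held 20.0, 12.6 and 3.98 RPKM.

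Jak3 and Tyk2 were low and did not differ past the threshold in any comparison. Jak3, the partner of the common gamma chain and mainly a lymphocyte kinase, passed 1 RPKM in 6 of 28 retinas, with group medians of 0.244 (naïve), 0.746 (4 h), 0.584 (18 h) and 0.418 RPKM (2 weeks) and highest values of 7.49, 3.21, 1.39 and 2.16. The log2 fold changes were 0.15, -0.017 and 0.11 with adjusted p of 0.87, 0.99 and 1. Tyk2, which serves the type I interferon and IL-12 receptors, had medians of 1.91, 1.08, 1.24 and 2.12 RPKM in the same order, and its log2 fold changes were -0.52 (SE 0.37, adjusted p = 0.47), -0.64 (SE 0.40, adjusted p = 0.43) and -0.033 (SE 0.36, adjusted p = 1).

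**Figure D4:**
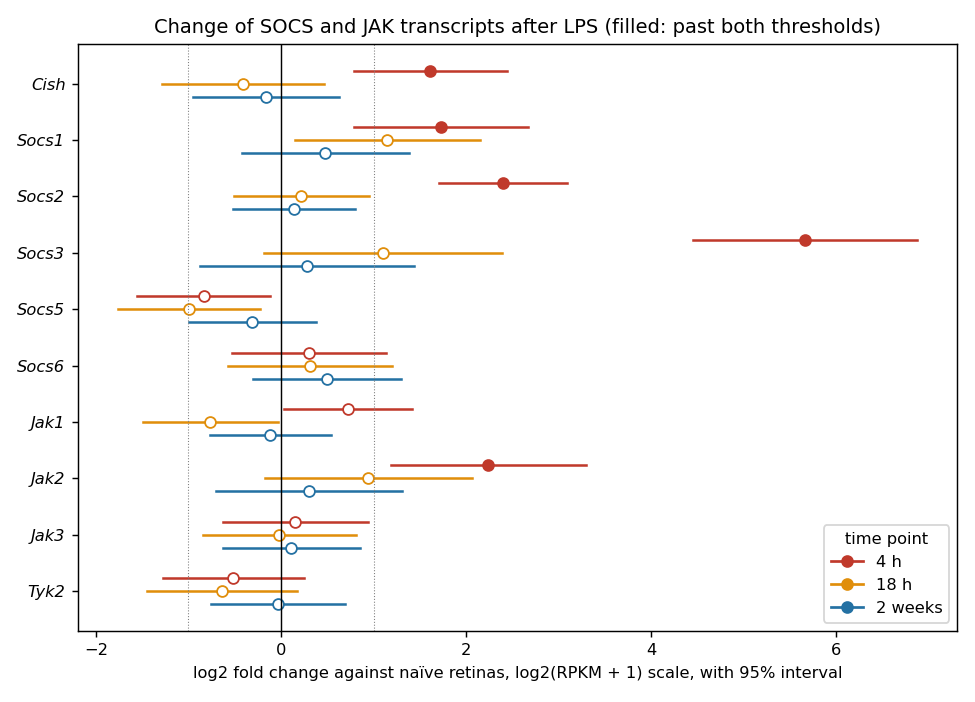
Log2 fold change of each member against naïve retinas at the 3 time points, on the log2(RPKM + 1) scale, with the 95% interval. Filled points passed both thresholds (5 at 4 h, none later), and the dotted lines mark a fold change of 2. The 3 comparisons share the naïve retinas.

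At 18 h, 2.84% of all genes tested rose and 1.85% fell, while none of the 10 members did so by limma. At an unadjusted p under 0.05 there were 3 of them, beside 2301 of the 13164 genes tested. The 3 were Socs1, Socs5 and Jak1, and their differences ran in both directions. At 2 weeks, 0.0076% of all genes rose and 0% fell, and no member was a DEG by limma. None of the members had an unadjusted p under 0.05, beside 378 of the 13164 genes tested. Their log2 fold changes lay between -0.31 and 0.50. The widest 2-week interval was that of Socs3, from -0.87 to 1.44, which includes a 2-fold difference. Against 4 h, Cish, Socs2, Socs3 and Jak1 fell by 18 h (5.42% of all genes passed in either direction), and Cish, Socs2, Socs3 and Jak2 were lower at 2 weeks (6.09%). Between 18 h and 2 weeks no member passed with limma, while 2.65% of all genes did. No member had an unadjusted p under 0.05 there, beside 1833 of the 13164 genes tested. Members whose 4 h retinas were all above the naïve ones were 3 of 10 (Socs2, Socs3 and Jak2), beside 1.65% of all genes tested. Socs2 could be counted only because of its 4 h retinas, as said above.

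The other genes of the pathway, taken from lists by role, were read in the same retinas. Of the 27 ligands listed that signal through JAKs 13 were tested. At 4 h 8 of them rose, none fell and 5 did not pass, with a median log2 fold change of 2.48, where 3.68% of all genes rose and 4.39% fell. Ifnb1, Il23a and Ctf1 reached the filter only through 4 h retinas, as did Stat5a, Pim1 and Bcl6 in the lists that follow, so these counts are descriptions. Il12b, the shared subunit of IL-12 and IL-23, was at 0 to 0.0799 RPKM in naïve retinas and at 2333 to 11307 at 4 h (log2 fold change 12.50, SE 0.49, adjusted p = 3.1e-18), and Ifnb1, which encodes interferon-beta, was at 0 to 19.3 and at 9.71 to 522 (5.64, SE 0.72, adjusted p = 1.1e-06). The other 6, named after their values were seen, were Il6, Il10, Il15, Il23a, Il27 and Ebi3. At 18 h, when 2.84% of all genes rose and 1.85% fell, 2 ligands rose, Il12b (4.27, adjusted p = 1.2e-06) and Ebi3, a subunit of IL-27 (3.33, adjusted p = 0.0090), and Ifnb1 was listed at 0 in all 5 retinas.

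Receptors moved in both directions. Of 22 tested, 3 rose and 4 fell at 4 h, beside 3.68% and 4.39% of all genes. Il2rg, which encodes the common gamma chain that binds JAK3, rose from a naïve median of 24.0 RPKM to 186 at 4 h (log2 fold change 3.82, SE 0.88, adjusted p = 0.0037) and remained raised at 18 h, at a median of 173 (3.45, adjusted p = 0.025). Il15ra rose at 4 h (1.56, adjusted p = 0.031). Lifr, the receptor of leukaemia inhibitory factor and a partner of gp130, fell by 1.83 at 4 h and by 1.57 at 18 h (adjusted p = 2.2e-04 and 0.0049), and Il7r fell by 1.57 and by 2.32 (adjusted p = 0.049 and 0.0074). The others that passed at 4 h, named after their values were seen, were Il10ra, which rose, and Il6ra and Il6st, the chains of the IL-6 receptor, which fell. At 18 h 1 receptor rose and 3 fell, beside 2.84% and 1.85% of all genes.

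Of the 5 STAT genes tested, Stat5a rose (1.28, SE 0.34, adjusted p = 0.012) and Stat5b fell (-1.14, SE 0.26, adjusted p = 0.0040) at 4 h, beside 3.68% and 4.39% of all genes. Stat5a went from a median of 0.380 to 3.85 RPKM and Stat5b from 2.72 to 0.620. The remaining 3 did not pass, and none of the 5 passed at 18 h. Of 11 other negative regulators, which include phosphatases and PIAS proteins, 1 rose at 4 h, beside 3.68% of all genes. It was Ptpn1, which encodes the phosphatase PTP1B, from a median of 10.8 to 62.2 RPKM (2.06, SE 0.51, adjusted p = 0.0072). The list of ubiquitin ligase genes taken as possible partners of the SOCS box had 6 tested: Elob, Eloc, Cul5, Rnf7, Cul2 and Rbx1. None of them passed at any time, with log2 fold changes from -0.78 (Rbx1, adjusted p = 0.17) to 0.31 (Cul2, adjusted p = 0.86) at 4 h. Of 16 genes known to be induced through STATs, 11 rose at 4 h and 5 at 18 h, beside 3.68% and 2.84% of all genes, and none fell. The largest were Cxcl10, a chemokine (8.51 and 3.95, adjusted p = 2.7e-09 and 0.0035), and Gbp2, an interferon-induced GTPase (4.90 and 3.61, adjusted p = 2.5e-07 and 2.7e-04). Whether these genes rose through STATs or by another route was not tested. No gene of any of these lists passed at 2 weeks.

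Over the 28 retinas the 5 members that rose at 4 h were correlated to unequal degrees. Group means were not removed and these members were picked by their shared rise, so positive correlations among them partly restate it. Pearson's r of log2(RPKM + 1) was 0.85 for Socs2 with Socs3, 0.74 for Socs1 with Socs3, 0.70 for Cish with Socs2 and 0.67 for Cish with Socs3, but 0.33 for Cish with Socs1, 0.34 for Cish with Jak2 and 0.36 for Socs1 with Jak2. Socs5 ran opposite to Socs1 (r = -0.66). Jak2 was most like Socs6 (r = 0.65) and Socs3 (r = 0.64), and Jak3 was most like Tyk2 (r = 0.59). The genes with the most similar profile of all those tested were Dusp2, Marcksl1 and Dusp1 for Socs3 (r = 0.95, 0.94 and 0.94), Tnip3, Cd40 and Mcoln2 for Socs2 (r = 0.95, 0.94 and 0.93), Lrrc25, Nfil3 and Arid5a for Socs1 (r = 0.90 each), and Ptafr, Nfkb2 and Gm45774 for Cish (r = 0.85, 0.79 and 0.79). For Jak2 they were Phtf1, Nup54 and Ifit1 (r = 0.81, 0.79 and 0.76), and for Jak1 Fchsd2, Gm3365 and Ctnnal1 (r = 0.83, 0.81 and 0.79). For Socs5 they were Klhl24, Arid2 and Zscan26 (r = 0.82 each), for Socs6 Bhlhb9, Olfm1 and Lurap1l (r = 0.86, 0.85 and 0.82), for Jak3 Atxn2l, Eng and Rab5b (r = 0.90, 0.89 and 0.89), and for Tyk2 Naglu, Tmem63a and Zbtb7a (r = 0.81, 0.80 and 0.79). All 28 retinas share the 4 groups and the gene number described above.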

How the data were processed

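Microglia were sorted as live tdTomatohi cells from 28 single retinas, and mRNA-Seq libraries were made with a SMART-Seq v4 kit. Per the labels and the study's methods, the authors aligned reads to mm10 with STAR 2.5.3a and quantified Ensembl transcripts in Partek by expectation maximisation, which can divide a read between genes. The deposited RPKM values were used here. Depth was 7510000 to 19700000 alignments a retina. Of the 280 member values 23 are listed at exactly 0 and 6 lie between 0 and 1e-10, and may come from that estimation. Not used were the authors' 4 h and 18 h tables of DEGs (ANOVA p-values, ratios, fold changes, F statistics and sums of squares).

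log2(RPKM + 1) of the 13164 genes that reached 1 RPKM in 5 or more retinas was fitted with limma 3.58.1 (R 4.3.3, mean-variance trend), with 28 retinas in 1 model of 4 groups and Benjamini-Hochberg adjustment. The difference between experiments was tested as an interaction. The test was checked on simulated data. Figures were drawn with Python 3.11.15. The members and the lists of other genes were chosen with earlier results of these data known. From each list, the DEGs ranked 1 and 2 by increase and by decrease at 4 h and 18 h were named, with the 3 genes most correlated with each member. Tceb1, Tceb2, Il3 and Il13 were not analysed here, and the results of some other genes of the lists are not reported here. Alternatives were another pseudocount, filter, scaling, model or set of retinas, each retina left out, and a replicate block. Promoter windows are RefSeq's for GRCm38.p6, and exons those of GENCODE M21.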

Additional observations from a re-analysis of the deposited data

Results flagged for a closer look

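In 12 of 40 groups of values (10 members in 4 groups) the highest or lowest retina lay farther from the rest than Dixon's 95% critical value. About 5% of groups pass it by chance where values are normally distributed. The values were untransformed RPKM, for which this was not tested, so the count is a description and not an excess over chance. Each of the 12 was the highest retina of its group.

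Socs3 had a retina of this kind in every group: naïve replicate 1 at 15.8 RPKM (next 0.876), 4 h replicate 1 at 724 RPKM (next 115), 18 h replicate 3 at 12.9 RPKM (next 2.52) and 2-week replicate 5 at 3.71 RPKM (next 1.24). Naïve replicate 1 was also highest for Jak3, at 7.49 RPKM (next 0.874). 4 h replicate 1 was also highest for Socs1, at 19.5 RPKM (next 7.10), and for Jak3, at 3.21 RPKM (next 0.997), and had the highest value of its group in 5 of the 10 members. For Cish they were naïve replicate 6 at 4.43 RPKM (next 1.82) and 2-week replicate 1 at 3.40 RPKM (next 0.207). For Socs5 they were naïve replicate 3 at 13.5 RPKM (next 7.21), 18 h replicate 4 at 3.89 RPKM (next 1.73) and 2-week replicate 1 at 12.1 RPKM (next 3.75). All 3 of the Socs5 retinas had fewer than 9000 genes at 1 RPKM, as had both Cish retinas. No member's difference between the experiments passed the test at 4 h or at 2 weeks.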

How the results depend on the processing

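Beside the 5 members that passed at 4 h, the count was 1 with a pseudocount of 10 (Socs3), 2 with a filter of 5 RPKM, which left 3 members to test, and 3 with the replicate block (Socs2, Socs3 and Jak2, with Cish at an adjusted p of 0.053 and Socs1 at 0.078), with experiment 1 alone, with experiment 2 alone and with an ANOVA on untransformed RPKM. With the pseudocount of 10, Cish, Socs1, Socs2 and Jak2 kept a limma adjusted p of 2.8e-04 to 0.023. They missed the fold threshold, at log2 fold changes of 0.41 to 0.84. Deviations of same-numbered retinas from their group means had a median r of 0.035 (34 pairs, 15 above 0.1). Retinas of other numbers had a median r of 0.0054 (253 pairs, 93 above 0.1). These sets overlapped widely (-0.33 to 0.70 and -0.55 to 0.69), and the number was not taken to pair retinas. At 18 h the count of 0 became 1 (Socs5) without retinas under 9000 genes. Between 4 h and 18 h the count of 4 was 2 with a pseudocount of 10 and with the filter of 5 RPKM. Cish and Socs2, lost with that pseudocount, kept a limma adjusted p of 0.015 and 0.0039 at smaller fold changes. For experiment 2 alone, which had 1 retina at 18 h, no count is given. Between 4 h and 2 weeks the count of 4 was 1 with a pseudocount of 10 and with experiment 2 alone, and 2 with the filter, with experiment 1 alone and with the ANOVA. The interaction with experiment at 4 h gave 1 (Socs2, -0.88, adjusted p = 0.0045) with a pseudocount of 10. Leaving out single retinas gave 4 to 5 members at 4 h.

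Of the members' differences, each recomputed under the alternatives in which it could be tested (the filter of 5 RPKM left 3 members, the interactions were not recomputed without single retinas, and the differences of 2 weeks from 4 h and 18 h were recomputed as counts only), 1238 kept their direction and side of the thresholds, 24 no longer passed, 4 newly passed and 62 changed sign. Apart from Jak1 between 4 h and 18 h, no difference that had passed changed sign. With experiment 2 alone they were Socs6 (-0.26) and Jak1 (-0.054) at 4 h, Cish (0.015) and Socs6 (-0.22) at 18 h, Jak2 (-0.20) at 2 weeks, and Socs5 (0.024) and Tyk2 (0.14) between 4 h and 18 h. Jak1 between 4 h and 18 h became 0.032. Without retinas under 9000 genes they were Socs6 (-0.35 at 4 h, -0.56 at 18 h, -0.14 at 2 weeks, -0.21 between 4 h and 18 h), Jak2 (-0.31 and -0.71 at 18 h and 2 weeks), Jak3 (-0.023 and -0.098 at 4 h and 2 weeks) and Socs3 (-0.17 at 2 weeks). With experiment 1 alone they were Jak3 (0.052 at 18 h, -0.098 at 2 weeks), Socs3 (-0.0030) and Tyk2 (0.20) at 2 weeks. With the ANOVA they were Jak3 (-0.11 and -0.28 at 4 h and 2 weeks) and Socs3 (-0.62 at 2 weeks). With quantile normalisation they were Socs2 (-0.030 and -0.062 at 18 h and 2 weeks), Jak3 (-0.13 at 2 weeks) and Tyk2 (0.045 between 4 h and 18 h). A pseudocount of 10 gave -0.016 for Socs3 and -0.0065 for Jak3 at 2 weeks and -0.0021 for the 2-week interaction of Socs1, and one of 0.1 gave 0.29 for Jak3 at 18 h, 0.18 for Tyk2 at 2 weeks and -0.32 for the 2-week interaction of Socs6. The replicate block gave 0.027 for Jak1 at 2 weeks, eye side as a covariate 0.017 for Tyk2 at 2 weeks, experiment as a covariate 0.018 for Jak3 at 18 h, and rescaling -0.030 for Socs6 between 4 h and 18 h.

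Leaving out single retinas gave ranges across 0 for Cish at 2 weeks (-0.46 to 0.056), Jak1 at 2 weeks (-0.20 to 0.069), Jak3 at 4 h (-0.10 to 0.43), at 18 h (-0.18 to 0.26), at 2 weeks (-0.041 to 0.39) and between 4 h and 18 h (-0.33 to 0.088), Socs6 between 4 h and 18 h (-0.14 to 0.13), and Tyk2 at 2 weeks (-0.21 to 0.15) and between 4 h and 18 h (-0.34 to 0.090). The cause of these changes was not tested. Values near that of 1 alignment limit what can be said of Socs2 and Cish outside 4 h, and of Jak3 in every group. Low values also lie in the naïve baselines of Socs3, listed at 0 in replicates 3 to 5, and of Jak2, at 0 to 0.192 RPKM in replicates 3 to 6.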
